A study of Mus musculus with 19 samples.

Results

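Transcripts of 10 genes of the transforming growth factor beta (TGF beta) receptor and Smad feedback system were followed in the cells of a mouse tendon injury site, by single-cell RNA sequencing with unique molecular identifiers (UMIs, 1 per captured transcript). The genes were taken by name for their roles, with earlier results of these data known: Tgfbr1, Tgfbr2, Tgfbr3, Acvrl1, Eng, Smad2, Smad3, Smad7, Skil and Pmepa1, 10 of the 27998 genes in the tables. The study asked where TGF beta comes from after an injury that leads to heterotopic ossification, the growth of bone in soft tissue, and what becomes of the responding cells. Its 19 libraries held 39541 cells after filtering, in 5 groups: day 0 (n = 4), day 3 (n = 3), day 7 (n = 4) and day 21 (n = 4) after injury, and animals given p7N3 (n = 4), a peptide that activates CD47 and was injected into the peritoneum daily at 10 mg/kg for 3 days before and 3 days after injury. The injury was a burn of 30% of the body surface, made with a block at 60 °C held for 18 s, together with cutting of the Achilles tendon, and the tissue around the cut was digested to single cells. The labels list this procedure for the day 0 libraries too, whereas the study's methods treat day 0 as uninjured. The study's methods give its wild-type animals as male C57BL/6J mice of 6 to 10 weeks. The labels name both C57 mice and LysmCre/Tgfb1fx/fx mice, which lack Tgfb1 in cells with active Lyz2, for the series and tie neither to a single library, so the genotype of each library was taken as not given. No vehicle was named in the labels for the libraries without peptide, and 1 p7N3 library (replicate 4) has no harvest day in its labels.

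TGF beta signals through a pair of serine/threonine kinase receptors. The ligand binds the type II receptor (Tgfbr2), which recruits and phosphorylates a type I receptor, Tgfbr1 (ALK5) in most cells or Acvrl1 (ALK1) in endothelium, and co-receptors without a kinase, betaglycan (Tgfbr3) and endoglin (Eng), present the ligand. Tgfbr1 phosphorylates Smad2 and Smad3, which carry the signal to the nucleus. Smad7, Skil (SnoN) and Pmepa1 (TMEPAI) are themselves induced by the pathway and restrain it at the receptor, at the DNA-bound Smad complex and at the receptor-regulated Smads respectively. In tendon and other connective tissue the pathway drives matrix production and the differentiation of progenitors to cartilage, and in endothelium Acvrl1 and Eng respond mainly to circulating bone morphogenetic proteins.

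Levels are given as CPM, the UMIs of a gene per 1000000 UMIs in the summed cells of a lineage in 1 library, so the library and not the cell is the unit of every test. All 10 genes passed the filter on low counts in each lineage tested. The lineages were clusters of cells named from fixed marker genes. The 3 lineages followed over time were stromal-like cells (Pdgfra, Col1a1 and related markers, 11610 cells, 29.4% of all), monocyte/macrophage-like cells (12667 cells, 32.0%) and endothelial-like cells (2919 cells, 7.38%). Their own summed markers reached 24504 to 72385 CPM in the stromal-like sums, 19207 to 33883 CPM in the monocyte/macrophage-like sums and 2624 to 5070 CPM in the endothelial-like sums. Because the clusters were named by these markers, the levels are no check on the names. Libraries held 3019467 to 39870492 UMIs in cells, and library pairs shared 0 to 22 cell barcodes. Those of day 0 were the shallowest, with 3019467 to 5383855 UMIs and medians of 3414 to 4693 per cell. Every library of the other groups held at least 11064153 UMIs. Each comparison with day 0 thus also sets libraries of unlike depth side by side, and the part of depth was not tested. The thinnest sums were those of monocyte/macrophage-like cells at day 0 (354 cells in 4 libraries, 252883 to 589602 UMIs), where 3 UMIs, the upper limit that a count of 0 allows, were worth 5.09 to 11.9 CPM, and the endothelial-like cells at day 3 (85 cells in 3 libraries). Limits of this kind cover counting error only, whereas the 95% intervals given below come from the fits and include the spread between libraries. Nothing in the labels says that libraries of a group came from separate animals, so p-values measure the spread between libraries.

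The makeup of each lineage differed between the groups, and this stands beside every change over time given here. Stromal-like cells of day 0 came from the cluster led by Myoc, Sfrp4 and Clec3b (52.9%) and from those led by Pcolce2 and Pi16 (23.8%) and by Cfd, Car3 and Has1 (22.5%). At day 3, 94.6% belonged to a cluster led by Prg4, Cxcl14 and Wisp2. At day 7 the Myoc-led cluster held 23.7%, and at day 21 it held 72.1%. Of the monocyte/macrophage-like cells, 78.0% at day 0 lay in a cluster led by Ccl8, Cd209f and Folr2, against 31.2% at day 21. Endothelial-like cells at day 0 were capillary-like (92.8% in the cluster led by Timp4 and Gpihbp1), whereas 91.7% at day 7 lay in the cluster led by Plvap, Aplnr and Selp. Markers of other cells also moved: the summed granulocyte markers were at 1422 to 2410 CPM in the stromal-like sums of day 3 and at 4.37 to 21.7 CPM at day 0, and the 6 stromal markers in the monocyte/macrophage-like sums were at 461 to 805 CPM at day 0 and 1230 to 1632 CPM at day 7, with none of these markers at 0. The part of makeup and of such foreign transcripts in each result was not tested, except where a single cluster is described. In sums of this kind fewer cells of a type and less RNA per cell cannot be told apart.

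The promoters of Tgfbr2 and Eng are shown because Tgfbr2 changed over time in stromal-like cells and Eng was far higher in endothelial-like cells. Other genes of the 10 also changed over time or differed between lineages. Each line gives the 250 bases before the start site from RefSeq (GRCm38.p6), read 5′ to 3′ on the strand of the gene, with capitals for CAGAC or its reverse complement GTCTG, the letters of the core Smad-binding element, so that both strands were searched.
Tgfbr2 promoter, chr9:116175364-116175613, minus strand: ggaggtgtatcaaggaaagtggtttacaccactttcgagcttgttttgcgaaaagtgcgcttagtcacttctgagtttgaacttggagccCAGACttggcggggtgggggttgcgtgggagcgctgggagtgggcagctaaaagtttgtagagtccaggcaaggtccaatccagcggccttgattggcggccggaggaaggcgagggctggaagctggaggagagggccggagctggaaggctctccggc
Eng promoter, chr2:32646345-32646594, plus strand: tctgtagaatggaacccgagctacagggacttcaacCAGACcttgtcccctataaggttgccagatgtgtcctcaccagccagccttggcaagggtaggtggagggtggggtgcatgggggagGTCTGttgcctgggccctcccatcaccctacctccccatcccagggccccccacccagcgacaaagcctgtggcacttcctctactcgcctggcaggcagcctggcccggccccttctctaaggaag
In Tgfbr2 the match began at base -160 from the start site, and in Eng the matches began at bases -214 and -127. Of all 32851 promoters in the table, taken over 300 bases around the start, 49.6% held CAGAC or GTCTG, so a match is common and is only a description of these windows. Promoters were found for 4 of the 10 genes (Tgfbr1, Tgfbr2, Eng and Smad3), and 3 of their 5 promoters held a match.

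The genes are spread over the genome, and all are annotated as protein coding on GRCm38. The receptor genes Tgfbr1 (chromosome 4, 47353222 to 47414931, plus strand), Tgfbr2 (chromosome 9, 116084293 to 116175360, minus strand), Tgfbr3 (chromosome 5, 107106570 to 107289629, minus strand) and Acvrl1 (chromosome 15, 101128522 to 101145336, plus strand) lie on separate chromosomes, while Eng (32646595 to 32682669, plus strand) and Pmepa1 (173224458 to 173276533, minus strand) share chromosome 2. Smad2 (76241580 to 76310963, plus strand) and Smad7 (75367529 to 75395935, plus strand) share chromosome 18, Smad3 lies on chromosome 9 (63646767 to 63757994, minus strand) and Skil on chromosome 3 (31095058 to 31122577, plus strand).

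Day 7 was used to place each gene among the lineages, because it held the most cells (13414). Endoglin was the most lineage-bound of the receptors. The 4 endothelial-like sums held 729, 649.6, 602 and 598 CPM of Eng, the lymphatic endothelial-like sums 229 ± 25.8 CPM (SD, n = 4), the pericyte/smooth muscle-like sums 83.4 ± 6.15 CPM (n = 4) and the stromal-like sums 25.7 to 33.0 CPM, and none of these neighbours overlapped. In all 19 libraries Eng was higher in endothelial-like than in stromal-like cells, by a median ratio of 21.7. At day 7 the difference was 20.3-fold (log2 4.35 ± 0.08, adjusted p = 1.87e-17, edgeR's quasi-likelihood test with Benjamini-Hochberg adjustment over all genes, with the library as a block, as for all comparisons of lineages). Acvrl1, the kinase that pairs with endoglin, was also highest in endothelial-like cells, at 94.4 ± 3.84 CPM (n = 4), and lay 2.64-fold above stromal-like cells (adjusted p = 6.05e-10).

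**Figure D1:**
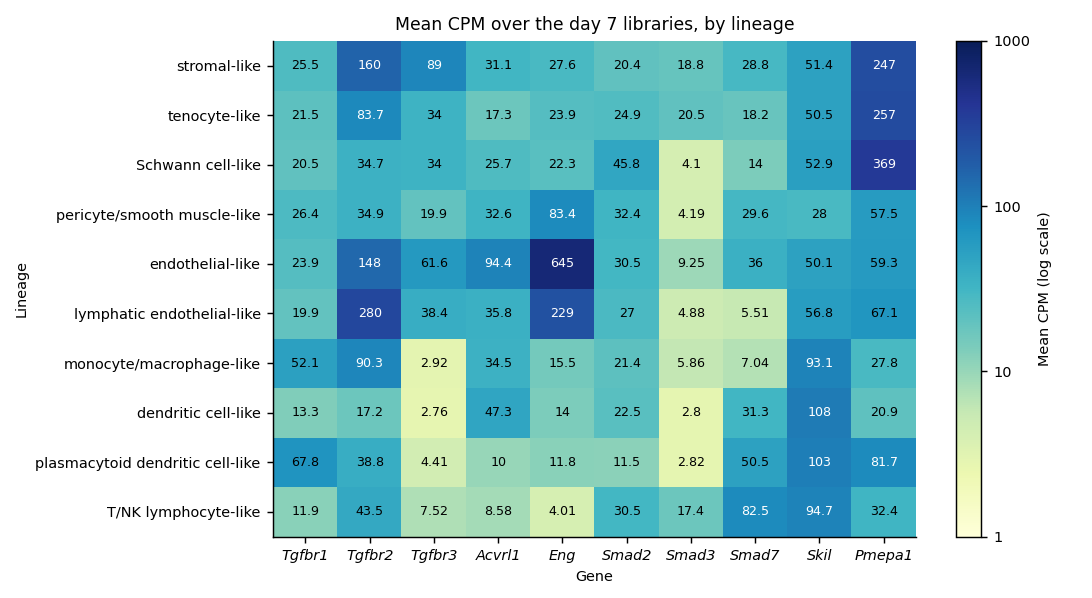
Mean CPM of each of the 10 genes (columns) in each lineage (rows) over the day 7 libraries, with the mean written in each cell and colour on a log scale. Eng stands out in the endothelial-like row (645 CPM) and Tgfbr3 and Pmepa1 are near their lowest in the monocyte/macrophage-like and dendritic cell-like rows.

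Betaglycan followed the stroma. Tgfbr3 was at 116, 76.3, 89.5 and 74.4 CPM in the stromal-like sums of day 7, at 61.6 ± 0.59 CPM in endothelial-like cells and at 3.63, 2.04, 3.10 and 2.92 CPM in monocyte/macrophage-like cells. It was thus 24.5-fold lower in the latter than in stromal-like cells (log2 -4.62 ± 0.12, adjusted p = 1.79e-15, edgeR's quasi-likelihood test), and the order held in all 19 libraries. After each cell was thinned to 1500 UMIs, 14.6% of stromal-like cells had a Tgfbr3 UMI at day 7 (61.9% unthinned), against 0.5% of monocyte/macrophage-like cells (1.7% unthinned) and 0.5% of dendritic cell-like cells, with median depths of 12790.5 and 5279.5 UMIs in the first pair. No share in empty droplets was measured.

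The ligand-binding receptor Tgfbr2 was found in nearly every lineage. Its highest day 7 level was in lymphatic endothelial-like cells (279.9 ± 59.0 CPM, n = 4), followed by stromal-like (159.7 ± 29.0 CPM) and endothelial-like cells (148 ± 18.0 CPM), whose libraries overlapped, and then by monocyte/macrophage-like cells (90.3 CPM). Monocyte/macrophage-like cells held 1.41-fold less of it than stromal-like cells (adjusted p = 0.000492). Tgfbr1, the kinase that phosphorylates Smad2 and Smad3, had the opposite order: 52.1 ± 6.96 CPM in monocyte/macrophage-like cells, overlapping plasmacytoid dendritic cell-like cells at 67.8 ± 18.9 CPM, and 25.5 CPM in stromal-like cells. Against stromal-like cells the monocyte/macrophage-like level was 2.55-fold higher (adjusted p = 3.12e-08), and Tgfbr1 was higher in monocyte/macrophage-like cells in 16 of 19 libraries. The exceptions were all day 0 libraries.

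Of the receptor-regulated Smads, Smad2 had small fitted log2 differences, 0.38 (monocyte/macrophage-like) and 0.37 (endothelial-like) above stromal-like cells. The fits scale the sums first, so fitted differences between lineages need not equal ratios of CPM. Mean CPM of Smad2 was 21.4 in monocyte/macrophage-like, 30.5 in endothelial-like and 20.4 in stromal-like cells. It was highest in Schwann cell-like cells (45.8 ± 6.54 CPM, n = 3), and it was 20.1 to 20.9 CPM in the 4 stromal-like sums of day 7. Smad3 was uneven: 18.8 CPM in stromal-like cells, overlapping tenocyte-like cells at 20.5 CPM, and 5.86 CPM in monocyte/macrophage-like cells, a 2.55-fold difference (adjusted p = 1.13e-07, edgeR's quasi-likelihood test). Stromal-like cells held more Smad3 than either other lineage in all 19 libraries, by median ratios of 3.25 over monocyte/macrophage-like and 3.40 over endothelial-like cells.

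The 3 feedback genes were each highest in a different set of cells. Pmepa1 was at 247 ± 28.4 CPM in stromal-like cells, in the range of Schwann cell-like (369 ± 96.3 CPM) and tenocyte-like cells (257 ± 101 CPM), and was 7.15-fold lower in monocyte/macrophage-like cells (adjusted p = 1.02e-13) and 4.81-fold lower in endothelial-like cells (adjusted p = 3.37e-13). Skil was highest among leukocytes, and their order was not settled. Its mean was 108 CPM in dendritic cell-like and 93.1 CPM in monocyte/macrophage-like cells. Plasmacytoid dendritic cell-like sums held 146, 81.8, 111 and 74.2 CPM. The granulocyte-like sums of replicates 1 and 4, with 10 cells each, held 100 and 275 CPM (5 and 16 UMIs). With stromal-like cells as the base, the monocyte/macrophage-like level of Skil was raised 2.26-fold (adjusted p = 4.64e-10, edgeR's quasi-likelihood test). Smad7 was highest in T/NK lymphocyte-like cells (82.5 ± 33.2 CPM), which overlapped endothelial-like cells at 36.0 CPM. It was at 7.04 CPM in monocyte/macrophage-like cells, 3.26-fold below stromal-like cells (adjusted p = 1.67e-09), and its difference between endothelial-like and stromal-like cells was not called (log2 0.11, 95% interval -0.23 to 0.45).

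Counted over the 10 genes, monocyte/macrophage-like cells had 4 higher and 6 lower at day 7 with stromal-like cells as the base, where 36.5% of all tested genes were higher and 40.6% lower. Of the 4 higher, Acvrl1 (34.5 against 31.1 CPM) and Smad2 (21.4 against 20.4 CPM) had overlapping libraries. In endothelial-like against stromal-like cells 3 were higher, 6 lower and 1 not called, with 29.0% and 30.8% of all tested genes called in these directions. Calls for the smaller of these endothelial-like differences were lost when a library was left out, with little change in size: that for Tgfbr1 (log2 -0.31, adjusted p = 0.0498) was lost without any of replicates 1 to 3 (-0.28 to -0.32), that for Smad2 (0.37) without replicate 1 (0.32) or 4 (0.27), and that for Skil (-0.23) without any library (-0.23 to -0.28).

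In stromal-like cells the 3 receptors and 2 co-receptors had fallen at days 3 and 7, and Pmepa1 had risen. Tgfbr2 was at 254, 257, 215 and 245 CPM in the 4 day 0 libraries, at 72.3, 94.1 and 84.3 CPM at day 3, at 203, 146, 144 and 146 CPM at day 7 and at 319, 263, 340.3 and 250.5 CPM at day 21. The day 3 and day 7 libraries all lay below those of day 0, and those of day 21 overlapped them. The change was 2.67-fold at day 3 (log2 -1.42 ± 0.14, adjusted p = 1.57e-08) and 1.48-fold at day 7 (-0.56 ± 0.12, adjusted p = 0.000568). At day 21 it was a rise of 1.27-fold (0.35 ± 0.12, adjusted p = 0.0372), which was lost without any of 6 libraries (day 0 replicates 1 to 4, day 21 replicates 1 and 3; 0.28 to 0.38), and lay at 0.03 (adjusted p = 0.89) with tenocyte-like and chondrocyte-like cells added.

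**Figure D2:**
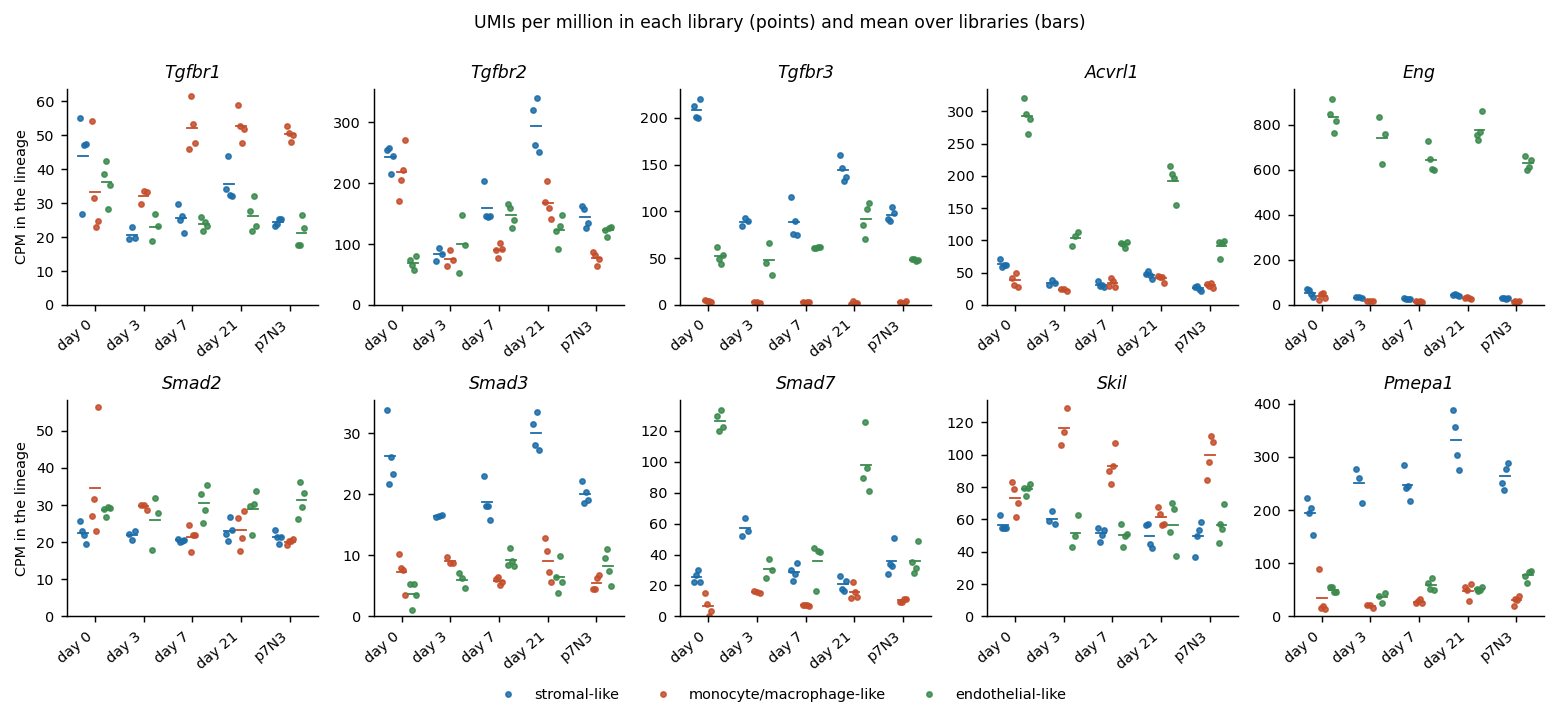
CPM of each gene (panels) in every library (points) with the mean over libraries (bars), by group, in stromal-like, monocyte/macrophage-like and endothelial-like cells, on linear axes that start at 0. Tgfbr2 is lowest at day 3 in the stromal-like sums (72.3 to 94.1 CPM), and Acvrl1 in the endothelial-like sums is highest at day 0 (265 to 320.2 CPM).

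The co-receptor Tgfbr3 stayed low for longer. Its 4 day 0 libraries held 213, 201, 199.9 and 220.1 CPM, those of day 3 held 84.0, 93.5 and 90.2 CPM, those of day 7 held 116, 76.3, 89.5 and 74.4 CPM and those of day 21 held 161, 147, 133 and 136 CPM. No library after injury reached the day 0 range. The fall was 2.16-fold at day 3 (adjusted p = 1.32e-07), 2.29-fold at day 7 (adjusted p = 1.91e-08) and 1.38-fold at day 21 (adjusted p = 0.00392).

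Acvrl1 and Eng, better known from endothelium, were also lower in stromal-like cells at days 3 and 7. Acvrl1 was at 58.6 to 70.9 CPM at day 0, 30.8 to 38.0 CPM at day 3, 27.6 to 36.6 CPM at day 7 and 41.1 to 52.2 CPM at day 21, all below day 0, with changes of -0.79 ± 0.13, -1.01 ± 0.12 (adjusted p = 4.55e-07) and -0.39 ± 0.12 on the log2 scale. The call at day 21 was lost without day 0 replicate 1 (-0.32) or day 21 replicate 4 (-0.33). Eng was at 33.8 to 69.5 CPM at day 0 and fell 1.51-fold at day 3 (adjusted p = 0.00214) and 1.92-fold at day 7 (adjusted p = 1.12e-05), while its day 21 value of -0.27 was called only without day 0 replicate 4 (-0.43) among the fits that left out a library. Tgfbr1 stood at 54.9, 26.8, 47.0 and 47.3 CPM at day 0, where replicate 2 lay apart, and at 19.4 to 23.1 CPM at day 3 and 21.1 to 29.6 CPM at day 7. It fell 2.05-fold at day 3 (adjusted p = 1.51e-05) and 1.76-fold at day 7 (adjusted p = 0.000107). Its day 21 value of -0.31 did not pass the threshold (adjusted p = 0.139) and passed it without day 0 replicate 2 (-0.45).

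Of the Smads that carry the signal, Smad2 lay between 19.4 and 26.8 CPM in all 19 stromal-like sums and was not called at any time. Smad3 fell 1.53-fold at day 3 (adjusted p = 0.00183) and 1.42-fold at day 7 (adjusted p = 0.00526), from 21.7 to 33.8 CPM at day 0 to 16.4 to 16.6 CPM at day 3 and 15.7 to 23.1 CPM at day 7. The day 7 call was lost without day 0 replicate 1 (-0.33, adjusted p = 0.0863).

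Smad7, which directs the activated receptor to degradation, was called higher in the whole stromal-like lineage at day 3 alone among the 3 times tested. It was at 22.1, 26.8, 30.0 and 22.5 CPM at day 0, at 51.9, 63.6 and 55.4 CPM at day 3, at 30.2, 23.1, 27.1 and 34.8 CPM at day 7 and at 26.1, 18.0, 16.5 and 22.7 CPM at day 21. The day 3 libraries lay above every other stromal-like sum, the nearest being p7N3 replicate 4 at 51.0 CPM. The rise was 2.44-fold (log2 1.29 ± 0.22, adjusted p = 5.38e-05), and the granulocyte and monocyte/macrophage markers in the same day 3 sums were raised as well (1422 to 2410 and 1293 to 1419 CPM). At day 3 Smad7 itself was at 13.6, 20.7 and 12.8 CPM in the granulocyte-like sums. Its means in the main monocyte/macrophage-like clusters of day 3 were 15.7 and 15.4 CPM. The Smad7 mean at day 3 was 57.8 CPM in the cluster led by Prg4, Cxcl14 and Wisp2. At day 7 it was 22.0 CPM there. In the cluster led by Cfd, Car3 and Has1 it went from 37.2 CPM at day 0 to 76.2 CPM at day 7, without overlap. It went from 21.5 to 16.8 CPM in the Myoc-led cluster and from 23.6 to 24.6 CPM in the Pcolce2-led cluster. Outside the Myoc-led cluster these means were not tested. The part of makeup and of foreign transcripts in the day 3 rise was not tested.

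Pmepa1, which sequesters Smad2 and Smad3, was higher at each time: 222, 195, 205 and 153 CPM at day 0, 277, 261 and 214 CPM at day 3, 285, 241, 246 and 216 CPM at day 7 and 388, 357, 304 and 275 CPM at day 21. Only the day 21 libraries were all clear of day 0. The log2 rises were 0.49 ± 0.13 (adjusted p = 0.00303), 0.39 ± 0.12 (adjusted p = 0.0116) and 0.84 ± 0.12 (1.79-fold, adjusted p = 2.5e-05, edgeR's quasi-likelihood test). The day 7 call was lost without day 0 replicate 4 (0.30, adjusted p = 0.0575). With tenocyte-like and chondrocyte-like cells added, the day 3 value was 0.30 (adjusted p = 0.0643) and the day 7 value 0.19 (adjusted p = 0.216). Skil, by contrast, lay at 42.0 to 65.0 CPM across all groups without peptide and was not called at any time.

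Of the 10 genes in stromal-like cells, 2 were higher and 6 lower at day 3, where 31.0% of all tested genes were higher and 30.1% lower. At day 7 the counts were 1 and 6, against 28.0% and 25.1% of all genes, and at day 21 they were 2 and 2, against 16.7% and 13.5%. The median log2 change of the 10 genes was -0.60, -0.53 and -0.15 at the 3 times, and that of all tested genes 0.02, 0.04 and 0.03.

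Within the Myoc-led cluster, the only stromal-like cluster tested by itself and chosen after the data were seen, several of these changes differed from those of the whole lineage. It held 608 cells at day 0, 1067 at day 7 and 1094 at day 21. Over all genes 3203 were called in it at day 7 and 2152 at day 21, beside 7217 and 4107 in the whole lineage. The number of genes tested in it is not given here, so no share of all genes stands beside its calls. Tgfbr2 was at 198 ± 17.9 CPM at day 0 (n = 4) and 265 ± 46.8 CPM at day 7 (n = 4), a rise (log2 0.54 ± 0.12, adjusted p = 0.000965) where the whole lineage fell. Among stromal-like clusters at day 7, those led by Cfd, Car3 and Has1 (283 CPM) and by Myoc (265 CPM) held the most Tgfbr2. Tgfbr3 (-0.47, adjusted p = 0.0035), Acvrl1 (-0.61, adjusted p = 0.00059), Eng (-1.02, adjusted p = 3.1e-05) and Tgfbr1 (-0.54, adjusted p = 0.037) were lower at day 7 inside the cluster as in the whole lineage. Skil, not called in the whole lineage, was also lower there (-0.54, adjusted p = 0.0254), from 56.6 ± 8.80 to 36.7 ± 0.77 CPM (SD, n = 4 each). Pmepa1 was at 0.02 (adjusted p = 0.923) at day 7 and was called at day 21 (0.43, adjusted p = 0.027). Also called at day 21 were Tgfbr2 (0.67, adjusted p = 0.000171), Acvrl1 (-0.40, adjusted p = 0.0239) and Eng (-0.46, adjusted p = 0.0436). The other main day 0 clusters differed from each other. In the cluster led by Cfd, Car3 and Has1, mean Skil was 65.6 CPM at day 0 and 87.3 CPM at day 7, and mean Eng 30.6 and 31.1 CPM. In the Pcolce2-led cluster (n = 2 at day 7) mean Skil was 49.8 and 26.2 CPM, and mean Eng 46.8 and 24.2 CPM. These means were not tested.

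**Figure D3:**
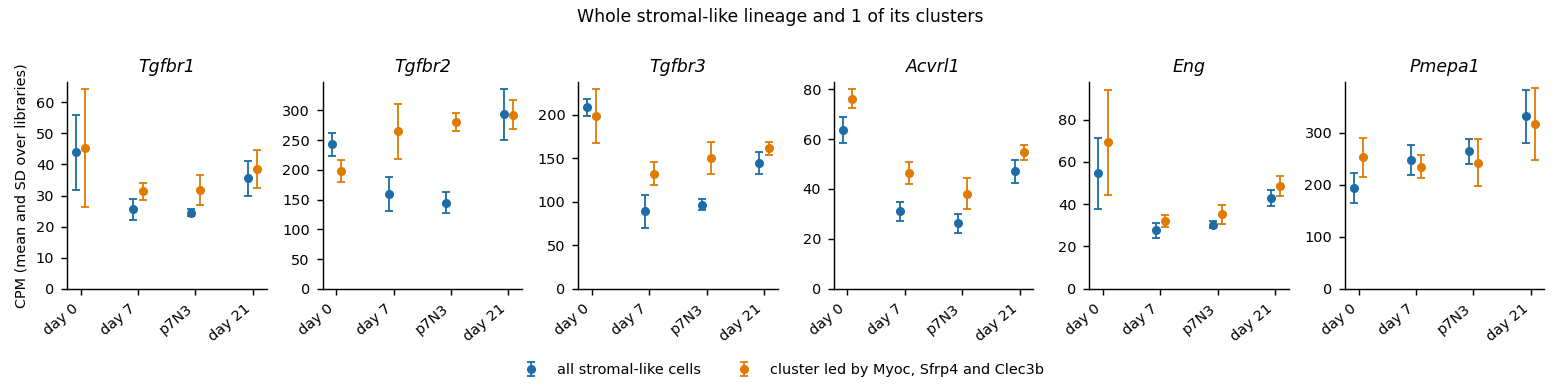
CPM (mean, with SD over libraries as bars) of 6 genes in the whole stromal-like lineage and in the Myoc-led cluster, at day 0, day 7, with p7N3 and at day 21. For Tgfbr2 the cluster rises from 198 CPM at day 0 to 265 CPM at day 7, and the whole lineage is lower at day 7 than at day 0.

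In monocyte/macrophage-like cells Tgfbr2 and Eng fell early, and Skil and Tgfbr1 rose. Tgfbr2 was at 171, 206, 222 and 271 CPM at day 0, at 64.6, 90.3 and 73.4 CPM at day 3, at 90.6, 76.8, 102 and 91.6 CPM at day 7 and at 168, 204, 158 and 140.4 CPM at day 21. The libraries of days 3 and 7 lay below every day 0 library, and those of day 21 overlapped them. Tgfbr2 fell 2.38-fold at day 3 (log2 -1.25 ± 0.15, adjusted p = 1.36e-07) and 1.94-fold at day 7 (-0.96 ± 0.14, adjusted p = 4.79e-06), and its day 21 value of -0.15 was not called (adjusted p = 0.534). Eng moved from 23.7, 47.5, 53.6 and 31.7 CPM at day 0 to 15.8, 17.7 and 16.8 CPM at day 3 and to 12.6 to 18.4 CPM at day 7, falls of 1.83-fold (adjusted p = 0.00294) and 1.92-fold (adjusted p = 0.00173).

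Skil, the nuclear repressor of the Smad complex, rose 1.82-fold at day 3 (adjusted p = 1.78e-05), from 83.1, 79.1, 61.3 and 70.4 CPM to 106, 114 and 129 CPM with no overlap, and by 0.59 ± 0.15 on the log2 scale at day 7 (adjusted p = 0.00196), where the libraries overlapped. Among the day 7 clusters it was at 188 ± 53 CPM in the one led by Chil3 and Ly6c2 and at 42 ± 14 CPM in the one led by Ccl8, Cd209f and Folr2. Tgfbr1 was at 54.3 CPM in day 0 replicate 1 and at 31.6, 23.0 and 24.6 CPM in the other day 0 libraries, and reached 46.0 to 61.4 CPM at day 7 and 47.6 to 58.9 CPM at day 21. The groups overlapped through day 0 replicate 1. The rise was 1.68-fold at day 7 (log2 0.75 ± 0.20, adjusted p = 0.00391) and 1.62-fold at day 21 (0.70 ± 0.22, adjusted p = 0.0199), the latter lost without day 0 replicate 2, 3 or 4 or without day 21 replicate 1 (0.55 to 0.62).

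The feedback genes Smad7 and Pmepa1 were thinly counted in these cells at day 0. Smad7 had 9, 2, 0 and 1 UMIs in the 4 libraries and 15.4 to 16.5 CPM at day 3, and its rise at day 3 (log2 1.12 ± 0.37, adjusted p = 0.0168) was lost without day 0 replicate 3 (0.81) or replicate 4 (0.89). Pmepa1 had 52, 4, 5 and 4 UMIs, so that day 0 replicate 1 stood at 88.2 CPM and the others at 14.1 to 19.2 CPM. It was not called at any time with all libraries. Without day 0 replicate 1 both Smad7 (2.21, adjusted p = 0.00901) and Pmepa1 (1.82, adjusted p = 0.0244) passed the threshold at day 21. Acvrl1 was not called at day 3 (-0.47, adjusted p = 0.108) although its day 3 libraries (22.5 to 24.9 CPM) lay below all those of day 0 (28.2 to 49.8 CPM). Tgfbr3, with 3, 1, 1 and 1 UMIs in the day 0 libraries, was not called at any time.

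For monocyte/macrophage-like cells, 2 of the 10 genes rose and 2 fell by day 3, where 21.2% and 16.5% of all tested genes were called in these directions. At day 7 the counts were 2 and 2 (17.9% and 14.2% of all genes) and at day 21 they were 1 and 0 (12.1% and 7.99%). The median log2 change was -0.17, -0.21 and 0.10, against 0.07, 0.04 and 0.06 for all tested genes. Within the cluster led by Ccl8, Cd209f and Folr2, chosen after the data were seen (276 cells at day 0 and 415 at day 7), 7 of the 10 genes passed the filter on low counts, 0 were called at day 7 by edgeR's quasi-likelihood test and 1, Tgfbr2, had an unadjusted p under 0.05. There Tgfbr2 was at -0.33 (adjusted p = 0.104), Eng at -0.45 (adjusted p = 0.285), Skil at 0.34 (adjusted p = 0.434) and Tgfbr1 at 0.04 (adjusted p = 0.957). Over all genes this cluster had 1710 called at day 7, beside 3687 in the whole lineage. The number of genes tested in it, and the number with an unadjusted p under 0.05, are not given here. The counts for the 7 genes therefore have no share of all genes beside them.

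In endothelial-like cells Acvrl1 and Smad7 fell, and Tgfbr2 rose. Acvrl1 was at 320.2, 297, 265 and 289 CPM at day 0, at 91.3, 107 and 113 CPM at day 3, at 96.1, 94.9, 88.9 and 97.7 CPM at day 7 and at 215, 204, 197 and 155 CPM at day 21. Every library after injury lay below every day 0 library, and the day 21 libraries lay between those of day 0 and day 7. The fall was 2.66-fold (log2 -1.41 ± 0.13, adjusted p = 7.46e-10), 3.12-fold (-1.64 ± 0.11, adjusted p = 4.58e-12) and 1.52-fold (-0.60 ± 0.11, adjusted p = 0.000142) at days 3, 7 and 21. Smad7 followed: 129, 119.9, 133 and 123 CPM at day 0, 24.9, 36.9 and 30.2 CPM at day 3, 44.2, 16.5, 42.0 and 41.3 CPM at day 7 and 89.8, 126, 96.0 and 81.0 CPM at day 21. Its fall was 3.88-fold at day 3 (adjusted p = 6.57e-06) and 3.51-fold at day 7 (adjusted p = 7.19e-07), and at day 21, where the libraries overlapped those of day 0, its value of -0.38 was not called (adjusted p = 0.179).

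Tgfbr2 moved the other way in this lineage. It was at 73.5, 66.1, 57.7 and 80.2 CPM at day 0, at 52.1, 148 and 98.7 CPM at day 3, at 165, 159, 126 and 139.8 CPM at day 7 and at 122, 91.4, 129 and 147 CPM at day 21. Days 7 and 21 lay wholly above day 0, and day 3 was split by replicate 1. It rose 2.11-fold at day 7 (log2 1.08 ± 0.21, adjusted p = 0.000328) and 1.78-fold at day 21 (adjusted p = 0.00823). At day 3 it was not called (0.60 ± 0.25, adjusted p = 0.0506), and it was called without day 3 replicate 1 (0.92, adjusted p = 0.000191). Endoglin stayed high throughout, with 764 to 914 CPM at day 0 and 598 to 729 CPM at day 7, a fall of 1.30-fold (adjusted p = 0.000765), and Tgfbr3 rose 1.77-fold at day 21 (adjusted p = 0.000249), from 44.1 to 62.1 CPM to 70.4 to 109 CPM.

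**Figure D4:**
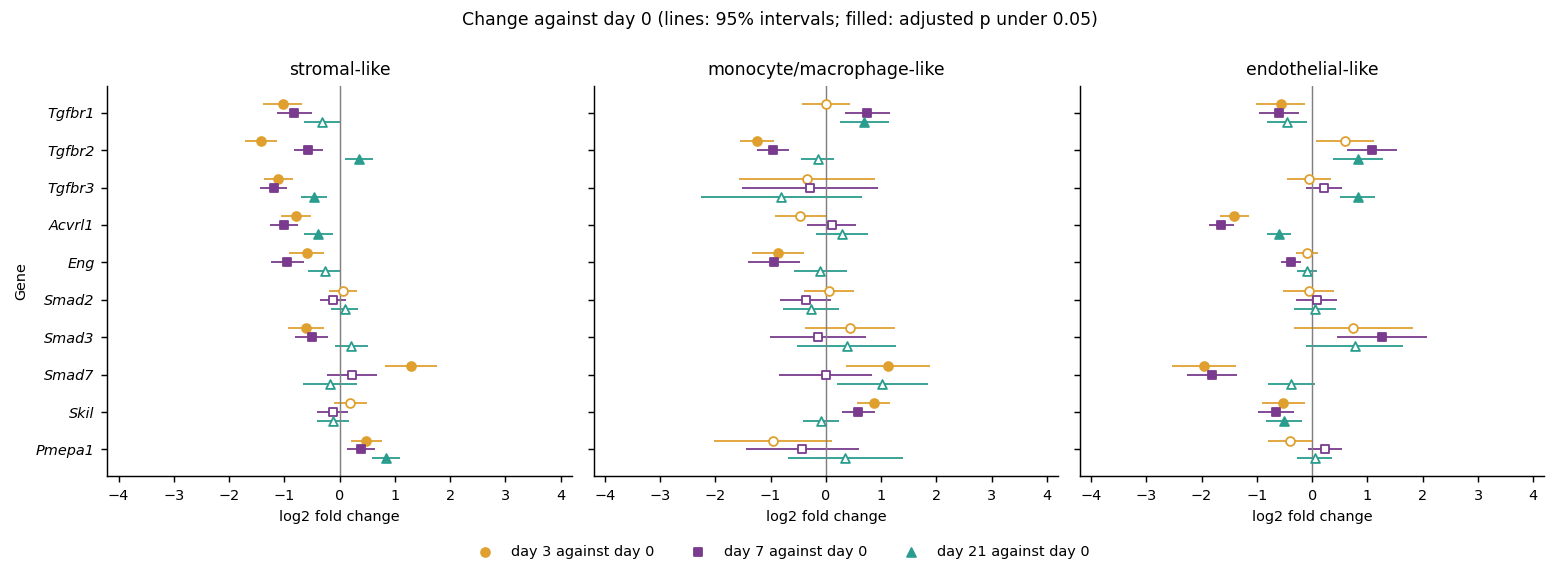
Log2 fold change from day 0 of each gene at days 3, 7 and 21 (points), with 95% intervals (bars), in the 3 lineages, filled where the adjusted p is under 0.05. For Tgfbr2 at day 7 the stromal-like (-0.56) and monocyte/macrophage-like points (-0.96) lie below 0 and the endothelial-like point (1.08) above it.

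Among the other members in endothelial-like cells, Tgfbr1 fell 1.52-fold at day 7 (adjusted p = 0.00454), from 28.3 to 42.4 CPM to 21.8 to 26.0 CPM. Its call at day 3 (log2 -0.57, adjusted p = 0.0285) was lost without day 0 replicate 1 or 2 or day 3 replicate 1 or 3 (-0.43 to -0.59). At day 21 (-0.46, adjusted p = 0.0537) Tgfbr1 was called without day 0 replicate 3 (-0.54) or day 21 replicate 3 (-0.54). Skil fell 1.58-fold at day 7 (adjusted p = 0.000979). Its calls at day 3 (-0.52) and day 21 (-0.51) were lost without day 3 replicate 1 or 2 (-0.38 and -0.51) and without day 0 replicate 4, day 21 replicate 1 or day 21 replicate 4 (-0.32 to -0.48). Smad3 was sparse, with 6, 1, 5 and 4 UMIs at day 0 and 24, 21, 15 and 11 at day 7, a rise of 2.40-fold (adjusted p = 0.00831). Smad2 was not called at any time, and Pmepa1 was not called with all libraries (at day 3 -0.40, adjusted p = 0.0851, and -0.59, adjusted p = 0.0322, without day 3 replicate 3).

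At day 3, 0 of the 10 genes were higher in endothelial-like cells by edgeR's quasi-likelihood test and 4 were lower, where 28.2% and 27.0% of all tested genes were called. At day 7 the counts were 2 and 5, against 28.2% and 26.9%, and at day 21 they were 2 and 2, against 13.9% and 13.2%. The median log2 change was -0.24, -0.15 and -0.03, and that of all tested genes -0.02, 0.00 and -0.01. Within single clusters, both chosen after the data were seen, fewer genes were called, among the 10 and among all genes. Over all genes, 171 were called at day 7 in the capillary-like cluster and 1172 in the Plvap-led cluster, beside 5499 in the whole lineage. The part of the smaller number of cells in this was not tested. The numbers of genes tested in these clusters, and those with an unadjusted p under 0.05, are not given here. The counts for the 10 genes in them therefore have no share of all genes beside them. In the capillary-like cluster (937 cells in 4 libraries at day 0 and 30 in 2 libraries at day 7) Acvrl1 (-0.95, adjusted p = 0.024) and Eng (-1.26, adjusted p = 5.1e-06) were lower at day 7. In the Plvap-led cluster, which held 47 day 0 cells in 3 libraries and 554 at day 7, edgeR called 0 of the 10 genes at day 7 and gave 2 an unadjusted p under 0.05 (Acvrl1 and Pmepa1): Acvrl1 was at -0.74 (adjusted p = 0.0723), Smad7 at -1.06 (adjusted p = 0.304) and Eng at 0.19 (adjusted p = 0.466), the latter against the direction of the whole lineage.

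Whether a change differed between lineages was tested as an interaction for monocyte/macrophage-like against stromal-like cells. The change from day 0 to day 7 differed for Tgfbr1 by 1.80 ± 0.24 on the log2 scale (adjusted p = 2.06e-07), with a rise in monocyte/macrophage-like and a fall in stromal-like cells, for Acvrl1 by 1.33 ± 0.24 (adjusted p = 3.38e-05) and for Skil by 0.93 ± 0.17 (adjusted p = 4.72e-05). These 3 of 10 genes stand beside 20.9% of all tested genes, whose median difference was 0.24. With RLE scaling, which moved that median to 0.03, the 3 genes were called in the same direction, and the split of all called genes went from 2009 higher and 875 lower to 1249 and 1222. At day 21 the difference was called for Tgfbr1 (1.17 ± 0.27, adjusted p = 0.00234) and Acvrl1 (0.82 ± 0.26, adjusted p = 0.0391), against 9.41% of all genes, and that of Acvrl1 was lost without any of 6 libraries (day 0 replicates 1, 2 and 4, day 21 replicates 1, 3 and 4; 0.71 to 0.86). The difference in the Tgfbr2 change was not called at either time with all libraries, and was called at day 21 without day 21 replicate 2 (-0.48, adjusted p = 0.0426). That of Smad7 was called at day 21 without day 0 replicate 1 (2.60, adjusted p = 0.0269).

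The peptide comparison set the p7N3 libraries against those of day 7 without peptide. None of the 10 genes was called in any of the 3 lineages by edgeR's quasi-likelihood test or by DESeq2. At an unadjusted p under 0.05 edgeR gave 1 gene in stromal-like cells, 2 in monocyte/macrophage-like cells and 2 in endothelial-like cells. Over all tested genes 0.0956%, 0.0174% and 0.0% were called in these lineages. DESeq2 called 112, 34 and 0 genes in all. Over all tested genes, 1721 of 13594, 799 of 11483 and 699 of 9985 had an unadjusted p under 0.05 in edgeR.

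**Figure D5:**
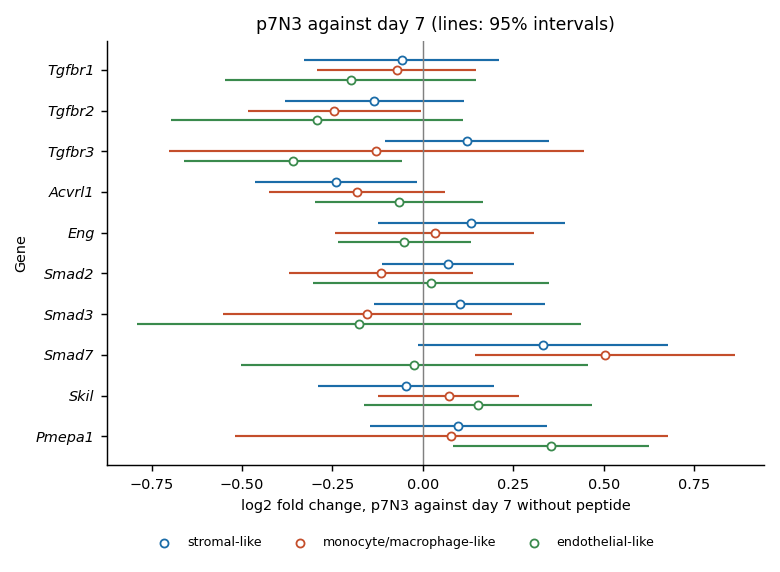
Log2 fold change of each gene in p7N3 libraries against day 7 libraries without peptide, with 95% intervals, in the 3 lineages. Most intervals lie across 0. In monocyte/macrophage-like cells that of Smad7 (0.15 to 0.86) lies above it and that of Tgfbr2 below it. The intervals of Acvrl1 in stromal-like cells and of Tgfbr3 and Pmepa1 in endothelial-like cells are also clear of 0. None of these differences was called after adjustment over all genes.

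The 95% intervals give the range of differences that these libraries allow. In stromal-like cells Tgfbr1 was at -0.06 (95% interval -0.33 to 0.21), Tgfbr2 at -0.13 (-0.38 to 0.11), Tgfbr3 at 0.12 (-0.11 to 0.35) and Pmepa1 at 0.10 (-0.15 to 0.34). Acvrl1, the gene at an unadjusted p under 0.05, was at -0.24 (-0.46 to -0.02, adjusted p = 0.35). Smad7 was at 0.33 (-0.01 to 0.68), with 27.4, 33.6, 32.4 and 51.0 CPM in the p7N3 libraries and 30.2, 23.1, 27.1 and 34.8 CPM at day 7.

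Monocytes and macrophages are known to carry Sirpa, a partner of CD47. In the study, an antibody that blocks SIRP alpha did not give the macrophage changes seen with p7N3. The authors propose that the peptide does not work by breaking up that pairing. In monocyte/macrophage-like cells Smad7 was at 9.47, 9.07, 11.5 and 11.0 CPM with p7N3 and at 7.13, 7.05, 7.02 and 6.97 CPM at day 7. All p7N3 libraries lay above all day 7 libraries, yet the difference (log2 0.50, interval 0.15 to 0.86) did not pass over all genes (adjusted p = 0.452). Tgfbr2 was at -0.25 (-0.48 to -0.01, adjusted p = 0.703) and Tgfbr1 at -0.07 (-0.29 to 0.15). In endothelial-like cells Tgfbr3 was at 48.8, 49.7, 47.4 and 48.0 CPM with p7N3, below all day 7 libraries at 61.1, 61.3, 61.5 and 62.4 CPM, and its difference (-0.36, interval -0.66 to -0.06) had an adjusted p of 0.625. Pmepa1 was at 0.35 (0.08 to 0.63, adjusted p = 0.59). At day 7 the SD was 0.07 CPM for Smad7 in monocyte/macrophage-like cells and 0.59 CPM for Tgfbr3 in endothelial-like cells. Both are small for counts of this size, and the separations rest on them. Of the 10 genes, 1 had no overlap between p7N3 and day 7 libraries in each of these lineages, and 0 in stromal-like cells. The share of all genes without such overlap is not given here. The interaction of peptide and lineage was called for none of the 10 genes by edgeR and for 0.16% of all genes. At an unadjusted p under 0.05 it held for none of the 10 genes and for 1051 of 13767 tested genes.

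The rest of the pathway was taken from 3 lists with 46 genes in all: other receptors and co-receptors, other Smads and regulators, and ligands and genes induced by TGF beta. In stromal-like cells at day 7, the list of ligands and induced genes had 10 higher, 3 lower and 7 not called of 20 tested, and at day 21 it had 13 higher, 4 lower and 3 not called, beside 28.0% higher and 25.1% lower of all tested genes at day 7 and 16.7% and 13.5% at day 21. The matrix and contractile genes led it: Cthrc1, a collagen-associated protein, went from 12.2 ± 8.05 CPM at day 0 to 1684 ± 331 CPM at day 7 (log2 7.35, adjusted p = 1.65e-11), smooth muscle actin Acta2 rose by 5.60 and Tagln by 5.07 at day 7, and periostin (Postn) rose by 3.98 at day 21. Other induced genes moved down, among them the immediate early factor Klf10 (-1.35, -1.45 and -0.77 at the 3 times) and the ligand Tgfb2, which fell from 107 ± 11.2 to 27.7 ± 4.72 CPM at day 3 (adjusted p = 3.16e-10).

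The list of other Smads and regulators had 3 higher, 6 lower and 6 not called of 15 in stromal-like cells at day 7, beside the same shares of all genes. It was led downward by Smad6 (-1.25), the inhibitory Smad of the bone morphogenetic protein branch, and Smurf2 (-1.23), the ubiquitin ligase that works with Smad7. Of the other receptors, 2 were higher, 2 lower and 5 not called of 9 at day 7, and 3 were higher and 6 lower of 9 at day 3, where 31.0% and 30.1% of all tested genes were called. Bambi, a decoy receptor, was at -1.08 at day 21 (adjusted p = 1.95e-05).

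In monocyte/macrophage-like cells the repressor Ski, the relative of Skil, fell at each time, from 127 ± 5.55 CPM at day 0 to 40.4 ± 2.90 CPM at day 3 (log2 -1.43, adjusted p = 3.21e-09) and 44.1 ± 4.17 CPM at day 7. Smurf2 fell by 0.96 at day 3 and by 1.36 at day 7. The list of other Smads and regulators had 1 higher and 3 lower of 14 at day 7, where 17.9% of all tested genes were higher and 14.2% lower. In the list of ligands and induced genes 10 of 18 were higher and 2 lower at day 7, led by Cthrc1, Postn and Col1a1, matrix genes at 64.1, 152 and 445 CPM beside 1684 CPM of Cthrc1 in stromal-like cells. The summed stromal markers, which include Col1a1 itself, also rose in these sums (461 to 805 CPM at day 0 and 1230 to 1632 CPM at day 7).

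In endothelial-like cells 12 of 18 ligands and induced genes were higher and 1 lower at day 7, where 28.2% of all tested genes were higher and 26.9% lower. Nox4, an oxidase, rose by 4.23 and Tgfbi by 4.01, and the summed stromal markers rose in the same sums from 518 to 750.2 CPM at day 0 to 1041 to 1872 CPM. Of the other Smads and regulators 5 were higher and 7 lower of 15, with Smurf2 at -1.37 and Ski at -0.95, and of the other receptors 2 were higher and 4 lower of 7. Between lineages at day 7 the ligand Tgfb1 was at 253 ± 17.7 CPM in monocyte/macrophage-like and 53.9 ± 5.26 CPM in stromal-like cells (log2 2.55, adjusted p = 8.28e-15), and Tgfb2 had the reverse order, at 1.29 ± 0.315 and 65.0 ± 1.57 CPM (-5.33). None of the 3 lists had a gene called between p7N3 and day 7 in any of the 3 lineages by edgeR's quasi-likelihood test. At an unadjusted p under 0.05 they had 4 genes in stromal-like, 1 in monocyte/macrophage-like and 1 in endothelial-like cells. Over all tested genes that limit was passed by 1721 of 13594, 799 of 11483 and 699 of 9985 in these lineages.

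Over the 181 sums of library and lineage with at least 50000 UMIs, the genes most like each member in level were found among 8792 genes by Pearson's r, as a description, since sums of 1 library share depth and those of 1 lineage share identity. Eng lay nearest to the endothelial genes Plvap (r = 0.842) and Emcn (r = 0.830), and Acvrl1 nearest to Adam15 (0.675) and to Eng itself (0.660). Tgfbr3 lay nearest to Map1b (0.868), Tgfbr2 to Pcsk6 (0.697) and Pmepa1 to Nenf (0.788). The nearest genes of the others reached lower values, 0.55 for Tgfbr1 with Ctsl and 0.606 for Smad7 with Atp2a3. Over the 19 stromal-like sums alone, Smad7 lay nearest to Lonp1 (0.909) and the chemokine Ccl7 (0.907). Among the members in these 19 sums, Tgfbr3 and Acvrl1 (0.90), Tgfbr1 and Tgfbr3 (0.86) and Tgfbr2 and Smad3 (0.87) moved together, and Tgfbr2 and Smad7 ran against each other (-0.85).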

How the data were processed

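Single-cell 3′ libraries were deposited by the authors as UMI counts per gene and cell barcode, in 1 matrix per library. The submitters' processing notes name Cell Ranger and Seurat and list the build mm10 for some libraries and GRCh38, a human build, for others. The study's methods state alignment to mm10, and every file holds mouse gene IDs. The counts are not normalized. The matrix of day 0 replicate 1 held 737280 barcodes, most of them empty, and was filtered like the others.

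Barcodes under 500 genes or over 25% mitochondrial UMIs were dropped, and the rest clustered jointly (scanpy 1.11.5, 2000 variable genes, 30 components, 20 neighbours, Leiden at resolution 0.8, with 7 clusters clustered again at 0.3), which gave 56 clusters. A cluster was named from fixed markers if the score of the best list was at least 2.5 and led by 1, at least 3 markers were detected in 10% of cells, and its leading genes did not go against the name. Unnamed clusters (2351 cells, 5.95%) included 2066 cells led by Mmp12, Acp5 and Mmp9 (0.281% of cells at day 0, 7.30% at day 3, 5.38% at day 7, 1.03% at day 21 and 7.49% with p7N3), which were added back as an alternative, and 148 cells led by Sfrp5, Krt19 and Itgb4 that were left unnamed by hand after their genes were seen. Doublets were not removed in the main analysis. Leaving out the top 3.9% of Scrublet scores was an alternative.

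UMIs were summed per library and lineage (at least 10 cells) and tested with edgeR 4.0.16 (quasi-likelihood, robust, TMM scaling, filterByExpr) in R 4.3.3, 1 fit per lineage over all 5 groups, with Benjamini-Hochberg adjustment over all tested genes and a threshold of 0.05. Lineages were compared with the library as a block. Folds are those of the fitted log2 changes, which include the TMM scaling and so can differ from ratios of the printed CPM. For the share of cells holding a UMI, depth was first evened by thinning each cell to 1500 UMIs. The test code was tested on simulated data. Pathway genes named in the text were the 3 with the largest change in each direction per comparison among those called, at 10 CPM or more in either group and with no overlap between the libraries compared, and the text gives some of them. A gene of the list of induced genes is not reported here, and it counts in the totals of its list. The 10 members, the lists and the tests were chosen with earlier results of these data known. Comparisons with day 0 share its 4 libraries, and those of p7N3 share the day 7 libraries. Alternatives were DESeq2 1.42.0, RLE scaling, no filter, replicates 1 to 3 only (replicate 4 was deposited later), the replicate number as a block, only the 2 groups compared, other clusterings, and each library left out. The single clusters, and the cluster added back, were alternatives chosen after seeing the data. Promoters came from RefSeq and gene positions from the GENCODE annotation of GRCm38. Columns left without a sample numbered 0.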

Additional observations from a re-analysis of the deposited data

Results flagged for a closer look

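In 8 of 120 groups of 4 libraries, a library stood apart from the other 3 by a gap over Dixon's 95% critical value, which chance gives in about 1 of 20 groups. In stromal-like cells Skil was at 62.9 CPM in day 0 replicate 1, above 54.6 to 54.8 CPM in the others. In day 7 replicate 1 of the same lineage Tgfbr2 was at 203 CPM and Eng at 33.0 CPM, both above the other 3 libraries. In monocyte/macrophage-like cells Pmepa1 was at 88.2 CPM in day 0 replicate 1, Tgfbr3 at 3.90 CPM in day 21 replicate 2 and Acvrl1 at 34.1 CPM in day 21 replicate 4, which lay below its group. In endothelial-like cells Smad7 was at 16.5 CPM in day 7 replicate 2 and Acvrl1 at 71.8 CPM in p7N3 replicate 2, both below the others.

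The change from day 0 in monocyte/macrophage-like cells differed from that in stromal-like cells, tested as an interaction in edgeR's quasi-likelihood fit, for 3 genes at day 7 and 2 at day 21. The log2 differences were 1.80 for Tgfbr1, 1.33 for Acvrl1 and 0.93 for Skil at day 7, and 1.17 for Tgfbr1 and 0.82 for Acvrl1 at day 21. Over all tested genes the difference was called for 20.9% at day 7, with a median of 0.24, and for 9.41% at day 21. With 1 library left out, 1 to 3 of the 10 genes were called at day 21, and the Acvrl1 call was among those lost.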

How the results depend on the processing

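Outside the fits that left out 1 library, 2046 values kept their direction and side of the threshold, 81 no longer passed, 15 newly passed and 11 reversed. With 1 library left out, 1611 were kept, 45 no longer passed and 10 newly passed. The causes were not tested. The number of the 10 genes called moved as follows. With replicates 1 to 3 only it was 2 in stromal-like, 0 in monocyte/macrophage-like and 2 in endothelial-like cells at day 21, and 0 for the lineage difference at day 21, which was 1 with DESeq2, with RLE scaling and with the Mmp12-led cluster added. With only the 2 groups compared, monocyte/macrophage-like cells had 0 at day 21. With DESeq2 it was 6 for endothelial-like against stromal-like cells at day 7, where edgeR had 3 higher and 6 lower. In stromal-like cells at day 21 it was 3 with DESeq2, where edgeR had 2 higher and 2 lower. Within 1 cluster it was 0 at days 7 and 21 in monocyte/macrophage-like cells, and 1, 0 and 1 at days 3, 7 and 21 in endothelial-like cells, where the capillary cluster gave 2 and 1 at days 7 and 21. Within 1 cluster the direction reversed for Tgfbr2 in stromal-like cells at day 7 (0.54) and, in endothelial-like cells at days 3, 7 and 21, for Eng (0.45, 0.19 and 0.58) and Skil (0.43, 0.23 and 0.41), and at day 7 for Smad3 (-1.38), Ski (0.27) and Acvr2a (6.41). The capillary cluster reversed Acvr2a at day 7 (0.59).

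With 1 library left out, the calls ranged for days 3, 7 and 21 in stromal-like cells from 8 to 8, 6 to 7 and 2 to 4, in monocyte/macrophage-like cells from 3 to 4, 4 to 4 and 0 to 3, and in endothelial-like cells from 3 to 4, 7 to 7 and 3 to 5. Between lineages at day 7 they ranged from 10 to 10 (monocyte/macrophage-like) and 6 to 7 (endothelial-like against stromal-like), and for the lineage difference from 3 to 3 (day 7) and 1 to 3 (day 21). With p7N3 they were 0 in each of these fits, in all 3 lineages and for the lineage difference.

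Counts over all genes moved by more than 1.5 times mainly with p7N3. In stromal-like cells 13 genes were called, and 112 with DESeq2, 45 with tenocyte-like and chondrocyte-like cells added, 8 at Leiden resolution 2, 8 without the top Scrublet scores, 7 with replicates 1 to 3, 0 with only the 2 groups, and 2 (without p7N3 replicate 3) to 46 (without day 7 replicate 4) with a library left out. In monocyte/macrophage-like cells 2 were called, and 34 with DESeq2, 92 without the filter, 4 without the top Scrublet scores, 0 with only the 2 groups or 1 cluster, and 0 to 8 with a library left out. In endothelial-like cells 0 were called, and 3 without the filter, 2 with only the 2 groups, 7 in the capillary cluster and 1 without p7N3 replicate 2. For the p7N3 lineage difference 22 were called, and 14 with DESeq2, 116 without the filter, 11 with replicates 1 to 3 or the Mmp12-led cluster added, 0 without the library block and 1 to 11 with certain libraries left out. Within 1 cluster fewer genes were called than in the whole lineage. In stromal-like cells the cluster had 3203 at day 7 (7217 in the whole lineage) and 2152 at day 21 (4107). In monocyte/macrophage-like cells it had 1710 (3687 in the whole lineage) and 776 (2303). In endothelial-like cells it had 1527 (5511 in the whole lineage), 1172 (5499) and 374 (2709) at days 3, 7 and 21. The capillary cluster there gave 171 and 466 at days 7 and 21. With replicates 1 to 3 the day 21 counts were 1483 in monocyte/macrophage-like and 1444 in endothelial-like cells and 674 for the lineage difference, which was 1295 with all.

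Same-numbered libraries were not taken as paired: of 45 pairs 5 had r over 0.1 (-0.122 to 0.200), in 0 of 12 comparisons did every pair, and 15 correlated best with their own number. Of the 5, 3 lay in stromal-like cells with p7N3 against day 7 (mean r 0.104 against -0.0346 for other numbers, 3 of 4 best with their own), where the block called 10 genes higher and 9 lower and the fit without it 13 genes in all. The replicate number as a block left 167 values as they were and called Acvrl1 in monocyte/macrophage-like cells at day 3 (-0.54, adjusted p = 0.0424). The low counts of the day 0 monocyte/macrophage-like and day 3 endothelial-like sums limit precision there.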

Other observations

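The unnamed cluster led by Mmp12, Acp5 and Mmp9 (2066 cells), which joined no lineage, held more Tgfbr1 and less Tgfbr2 than the monocyte/macrophage-like sums. At day 7 Tgfbr1 was at 75.9 ± 7.79 CPM (SD, n = 4) in the cluster and at 52.1 ± 6.96 CPM in monocyte/macrophage-like cells, and the libraries of the 2 did not overlap (lowest 69.0 CPM in the cluster, highest 61.4 CPM in the lineage). Tgfbr2 was at 32.6 ± 9.68 CPM in the cluster and at 76.8 to 102 CPM in the lineage. Skil was at 82.3 ± 7.45 CPM and Smad7 at 11.6 ± 5.02 CPM. These are values with no test.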
